A study of Mus musculus with 2 samples.

Results

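The 10 genes described here encode the ligands, the antagonist, the receptors and the NF-kB feedback proteins of the interleukin-1 (IL-1), tumour necrosis factor (TNF) and IL-33 pathways: Il1a, Il1b, Tnf and Il33, the antagonist Il1rn, the receptors Il1r1 and Il1rl1, and the feedback genes Nfkbia, Tnfaip3 and Nfkbiz. They were chosen by symbol from the 32285 genes of the count tables, and all 10 were detected. The data were droplet-based single-cell RNA-seq of mononuclear cells from mouse limb muscle, with 1 library from animals given DMSO, the vehicle, and 1 from animals given the drug Maraviroc (MVC). The animals were aged C57BL/6 mice injected intraperitoneally, and live cells were sorted by FACS. The labels give no age, dose, treatment length or number of animals per library. With 1 library per treatment there is no replicate spread, so no test between treatments was made, and all intervals below are 95% intervals that cover counting error only.

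IL-1 alpha (Il1a) and IL-1 beta (Il1b) both act through the receptor Il1r1, and the antagonist encoded by Il1rn occupies that receptor without signalling. Signals from Il1r1 and from the TNF receptors free the transcription factor NF-kB from its inhibitor IkB-alpha (Nfkbia), and NF-kB in turn induces Nfkbia, the ubiquitin-editing enzyme A20 (Tnfaip3) and the nuclear cofactor IkB-zeta (Nfkbiz), so transcripts of these feedback genes are widely used as a readout of recent NF-kB activity. IL-33 is a nuclear alarmin of stromal cells that acts through ST2, the product of Il1rl1, on mast cells, type 2 innate lymphoid cells and regulatory T cells, and in muscle its known sources are mesenchymal cells.

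On the mouse genome (GRCm38), Il1a lies at chr2:129299610-129309972 and Il1b at chr2:129364570-129371139, both on the minus strand, and each is overlapped by an annotated gene on the opposite strand (Gm14023 and Il1bos). How the counting treated strand is not given in the sources used here, so reads of these overlapping pairs may not be fully separable. Il1rn lies at chr2:24336853-24351494, plus strand, and the receptor genes Il1r1 and Il1rl1 are neighbours at chr1:40225080-40317257 and chr1:40429570-40465415, plus strand. Tnf is at chr17:35199381-35202007, Tnfaip3 at chr10:19000910-19015657, Nfkbia at chr12:55489410-55492647 and Nfkbiz at chr16:55811375-55838899, all on the minus strand, and Il33 is at chr19:29925114-29960718 on the plus strand.

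RefSeq promoter windows (GRCm38.p6, 250 bases before to 50 after each transcript start) were found for 9 of the 10 genes, 15 windows in all, and Nfkbiz had no entry. They were searched on both strands for GGANNTTCC, a core of the NF-kB consensus. The letters occurred in 4 of the 15 windows and in 4.26% of all 32851 windows. The windows that hold them are shown because they belong to Tnf, to the feedback genes Tnfaip3 and Nfkbia and to a second annotated start of Il1rl1, with the match in capitals. Each is printed 5′ to 3′ on the gene's strand up to 30 bases after the start, at chr17:35201978-35202257 (minus) for Tnf, chr10:19015381-19015660 (minus) for Tnfaip3, chr12:55492618-55492897 (minus) for Nfkbia and chr1:40439379-40439658 (plus) for Il1rl1.
Tnf: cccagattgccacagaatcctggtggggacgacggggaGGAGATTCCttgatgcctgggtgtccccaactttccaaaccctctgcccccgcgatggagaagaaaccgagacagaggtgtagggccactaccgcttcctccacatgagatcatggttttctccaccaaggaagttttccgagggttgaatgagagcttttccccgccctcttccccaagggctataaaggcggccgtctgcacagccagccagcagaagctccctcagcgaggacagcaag
Tnfaip3: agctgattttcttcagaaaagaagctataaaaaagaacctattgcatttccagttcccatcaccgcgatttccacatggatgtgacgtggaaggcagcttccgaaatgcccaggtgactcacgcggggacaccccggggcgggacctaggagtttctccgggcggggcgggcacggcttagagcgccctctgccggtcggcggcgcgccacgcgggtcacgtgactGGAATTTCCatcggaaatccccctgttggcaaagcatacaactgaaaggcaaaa
Nfkbia: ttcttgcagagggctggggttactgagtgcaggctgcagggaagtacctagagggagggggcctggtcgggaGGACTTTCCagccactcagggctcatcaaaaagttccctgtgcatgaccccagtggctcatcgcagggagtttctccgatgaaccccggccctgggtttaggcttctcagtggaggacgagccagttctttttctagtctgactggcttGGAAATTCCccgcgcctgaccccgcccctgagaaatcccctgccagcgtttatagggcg
Il1rl1: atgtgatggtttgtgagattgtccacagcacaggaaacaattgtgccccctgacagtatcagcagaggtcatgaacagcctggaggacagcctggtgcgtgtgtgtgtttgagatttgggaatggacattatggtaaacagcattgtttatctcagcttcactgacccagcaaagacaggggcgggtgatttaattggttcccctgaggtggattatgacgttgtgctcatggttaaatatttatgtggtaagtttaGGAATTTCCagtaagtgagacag
Counted from the transcript start, the match began at -212 in Tnf, at -24 in Tnfaip3, at -178 and -29 in Nfkbia, and at +8 in Il1rl1. A match describes these letters and is not a measured binding site.

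Barcodes with 500 genes or more and no more than 10% of mitochondrial UMIs were kept, and 5437 of 5812 barcodes remained in the DMSO library and 5454 of 6047 in the MVC library. A cell had a median of 5802 unique molecular identifiers (UMIs, each standing for 1 captured transcript) with DMSO and 5195 with MVC, and 8 kept barcodes occurred in both libraries. Cells were clustered without the 10 genes, and clusters were named "X-like" from marker lists. The 12 classes with at least 50 cells in each library were compared: endothelial cells (EC), lymphatic EC, fibro-adipogenic progenitors (FAP, the mesenchymal progenitors of muscle), muscle stem cells (MuSC), smooth muscle cells (SMC), pericytes, perineurial cells (the sheath of nerve bundles), Schwann cells, tenocytes, macrophages, B cells and T/NK cells. Neutrophil-like (64 vs. 34 cells) and mast-like cells (10 vs. 4) are given as values only. T/NK-like cells numbered 186 with DMSO and 57 with MVC, and B cell-like cells 206 and 106. Levels are UMIs per 1000000 UMIs of a class (CPM), not divided by transcript length, so they are compared within a gene and not between genes.

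**Figure D1:**
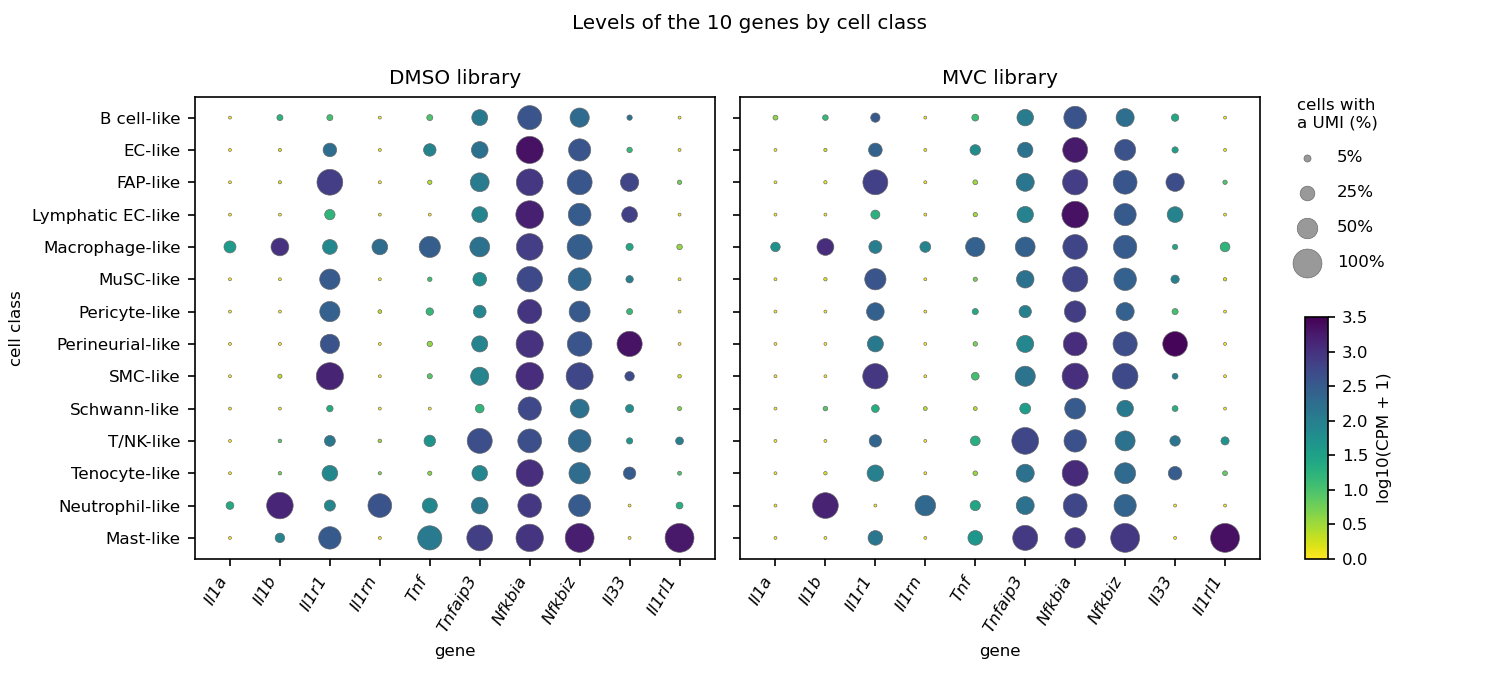
Level of each of the 10 genes (horizontal axis) in each cell class (vertical axis) in the DMSO library (left) and the MVC library (right). Colour is log10(CPM + 1) and dot size the percentage of cells with at least 1 UMI. Il1b and Il1rn are highest in macrophage-like and neutrophil-like cells and Il1a in macrophage-like cells, Il33 is highest in perineurial-like cells (2127 and 2815 CPM), and Il1rl1 stands out in mast-like cells (1853 and 2284 CPM).

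A gene was called higher or lower in the MVC library of a class when its CPM ratio was at least 1.5-fold either way, the exact interval of the ratio excluded 1, and it had at least 50 UMIs over both libraries. Of the 120 gene and class pairs, 66 had enough UMIs, of which 9 were called higher and 9 lower. Tnfaip3 accounted for 4 of the higher calls and had no lower call, in 11 classes with enough UMIs. Nfkbia had 1 lower call in 12 classes and Nfkbiz none in 12, while Il33 (2 higher and 3 lower in 10 classes) and Il1r1 (2 and 2 in 10) had calls in both directions.

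These counts stand beside the share of all genes called by the same rule in the same class. In EC-like cells 1 of 6 genes with enough UMIs was higher (Il33) and 0 lower, against 9.12% and 3.16% of all genes. In FAP-like cells it was 1 of 7 (Il1rl1) and 0, against 10.7% and 2.77%, and in tenocyte-like cells 1 of 6 (Tnfaip3) and 0, against 8.15% and 4.58%. MuSC-like cells had 1 of 5 higher (Tnfaip3) and 0 lower (8.45% and 7.06% of all genes), and pericyte-like cells 0 of 5 in either direction (7.93% and 4.6%). SMC-like cells had 1 of 5 higher (Tnfaip3) and 2 lower (Il1r1 and Il33), against 9.75% and 5.92%. In perineurial-like cells 0 of 5 were higher and 1 lower (Il1r1), against 14.2% and 9.33%, in Schwann-like cells 0 of 2 and 1 (Nfkbia), against 9.3% and 6.12%, and in lymphatic EC-like cells 0 of 4 and 1 (Il33), against 8.08% and 9.28%. Macrophage-like cells had 1 of 9 higher (Tnfaip3) and 1 lower (Il1rn), against 8.54% and 5.51%. In B cell-like cells 1 of 5 was higher (Il1r1) and 1 lower (Il33), against 10.9% and 6.05%, and in T/NK-like cells 2 of 7 were higher (Il1r1 and Il33) and 2 lower (Tnf and Il1rl1), against 13.7% and 8.62%. Over all cells together, 0 of 10 were higher and 2 lower (Il1rn and Il1rl1), against 7.09% and 5.18%. Each of these counts rests on 2 to 10 genes.

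Il1b, the secreted IL-1 ligand, was a myeloid transcript in both libraries. Macrophage-like cells held 1872 UMIs with DMSO (1002 CPM, 957 to 1049) and 2425 with MVC (1150 CPM, 1105 to 1197), a ratio of 1.15 (1.08 to 1.22) that is under the fold needed for a call. Neutrophil-like cells held 655 UMIs (1369 CPM) and 333 (1461 CPM). Macrophage-like cells carried 72.1% of all Il1b UMIs with DMSO and 87.1% with MVC, and neutrophil-like cells 25.2% and 12.0%. Within the macrophage-like class Il1b was found in 57 of 152 cells (37.5%) and in 71 of 211 (33.6%), and at an equal depth of 2000 UMIs per cell in 28.0% and 26.3%, a difference of -1.71 percentage points (-11.4 to 7.66). For comparison, EC-like cells had it in 0.174% and 0.283% of cells at median depths of 3700 and 3234 UMIs, and whether these UMIs were free RNA was not tested.

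Il1b-carrying cells of the macrophage-like class differed in marker genes from the rest of it. With DMSO the complement gene C1qa, typical of resident macrophages, was found in 29 of 57 Il1b-positive cells (50.9%) and 68 of 95 others (71.6%), and with MVC in 23 of 71 (32.4%) and 114 of 140 (81.4%). Plac8, a monocyte gene, went the other way, in 21.1% vs. 7.37% of cells with DMSO and 32.4% vs. 5% with MVC, as did the monocyte receptor gene Ccr2 (42.1% vs. 20%, and 39.4% vs. 22.1%). Of the macrophage list, C1qb, C1qc, Mrc1 and Cd163 went with C1qa in both libraries. Cd163, for example, was found in 26.3% vs. 47.4% of cells with DMSO and 15.5% vs. 57.1% with MVC. Cd68 went the other way, found more often in Il1b-positive cells (82.5% vs. 68.4% with DMSO and 88.7% vs. 63.6% with MVC). Adgre1 was mixed, at 70.2% vs. 65.3% with DMSO and 54.9% vs. 70% with MVC, as were Csf1r and Fcgr1. Of the dendritic cell genes, Zbtb46 was found in 36.8% vs. 22.1% and 32.4% vs. 17.1%, and Cd209a in 15.8% vs. 30.5% and 21.1% vs. 39.3%. Flt3, Xcr1 and H2-DMb2 went with Zbtb46 in both libraries, and Ciita was at 15.8% vs. 15.8% with DMSO and 7.04% vs. 19.3% with MVC. Detection of these genes shares its depth with detection of Il1b, so the shares are a description. Il1a, the IL-1 form that acts on release from cells, was scarce, with 72 and 106 UMIs in macrophage-like cells (38.5 CPM, 30.2 to 48.5, vs. 50.3 CPM, 41.2 to 60.8). They came from 25 and 21 cells, and 3 cells held 61.3% of the MVC UMIs. Neutrophil-like cells had 11 Il1a UMIs with DMSO and 0 with MVC, where 3 counts would be 13.2 CPM, and EC-like and FAP-like cells had 0 in both libraries, where 3 counts would be at most 0.365 CPM.

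Il1rn, the IL-1 receptor antagonist, was lower in the MVC library in macrophage-like cells. In macrophage-like cells it had 347 UMIs with DMSO (186 CPM, 167 to 206) and 178 with MVC (84.5 CPM, 72.5 to 97.8), a ratio of 0.455 (0.377 to 0.546), and the intervals of the levels did not overlap. It was found in 44 of 152 cells (28.9%) and 28 of 211 (13.3%), and at 2000 UMIs per cell in 12.6% and 5.56%, a difference of -7.03 percentage points (-13.9 to -0.951). Neutrophil-like cells, which were too few to be compared as a class, had 192 and 48 UMIs (401 CPM, 346 to 462, vs. 211 CPM, 155 to 279), with Il1rn in 43 of 64 and 17 of 34 cells. Over all cells the level was 14.5 CPM (13.3 to 15.8) with DMSO and 6.53 CPM (5.72 to 7.43) with MVC, a ratio of 0.45 (0.385 to 0.526), which rests on those same cells and on how many of them each library held. In EC-like cells 1 UMI was counted in each library.

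Set against its antagonist, Il1b stood higher in the MVC library. Macrophage-like cells had 5.39 Il1b UMIs per Il1rn UMI with DMSO (4.81 to 6.07) and 13.6 with MVC (11.7 to 15.9), and neutrophil-like cells 3.41 (2.90 to 4.03) and 6.94 (5.11 to 9.60). The antagonist was found in 26 of 57 Il1b-positive macrophage-like cells with DMSO (45.6%) and in 18.9% of Il1b-negative cells, and with MVC in 23 of 71 (32.4%) and 3.57%. Summed over their lists, the 9 macrophage markers stood at 4779 and 4784 CPM in this class, the 6 monocyte markers at 571 and 518 CPM and the 6 dendritic markers at 283 and 284 CPM, with 0 of them undetected. The 7 neutrophil markers stood at 445 and 715 CPM, with 1 and 2 at 0 and the defining gene Ly6g at 0 in both libraries. Single markers of this list differed from the sum, since S100a8 was found in 7 of 44 Il1rn-positive cells and 9 of 108 others with DMSO, and in 0 of 28 and 3 of 183 with MVC. Their part in the Il1rn difference was not tested. Il1r2, the decoy receptor for IL-1 beta, was also lower in macrophage-like cells (44.4 vs. 16.1 CPM, ratio 0.363, 0.236 to 0.547), and Il6 was higher (58.9 vs. 134 CPM, ratio 2.27, 1.82 to 2.86).

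**Figure D2:**
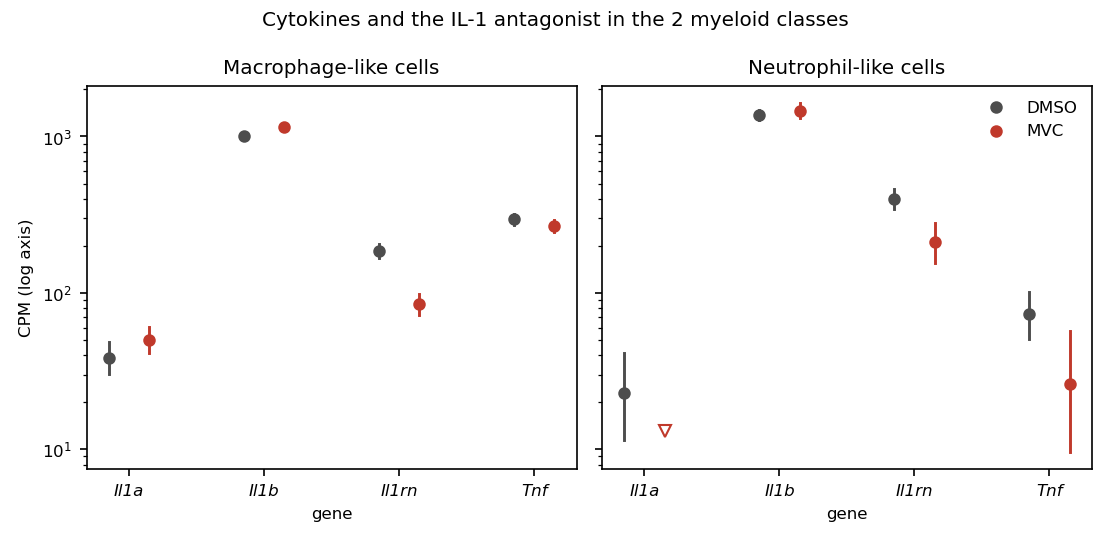
CPM on a log axis for Il1a, Il1b, Il1rn and Tnf in macrophage-like (left) and neutrophil-like cells (right), DMSO in grey and MVC in red, with bars for the 95% counting interval. The open triangle marks the level that 3 counts would give where no UMI was counted (13.2 CPM), and Il1rn is the gene whose DMSO and MVC points are separated in both classes (186 vs. 84.5 CPM and 401 vs. 211 CPM).

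Tnf transcripts came from EC-like as well as macrophage-like cells. EC-like cells held 887 UMIs with DMSO (85.1 CPM, 79.6 to 90.9) and 516 with MVC (62.8 CPM, 57.5 to 68.5), which was 53.7% and 43.1% of all Tnf UMIs. The ratio of 0.738 (0.661 to 0.824) excluded 1 but was under the fold needed for a call. Tnf was found in 18.0% and 12.5% of EC-like cells, and at 2000 UMIs per cell in 13.7% and 9.24%, which is -4.51 percentage points apart (-6.60 to -2.37). The deeper FAP-like cells had it in 1.28% and 1.76% of cells (1.5 and 2.37 CPM) and in 0.178% and 0.154% at 2000 UMIs, well below the shares of EC-like cells.

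Among the EC-like clusters, Tnf was called lower in the one led by Slc1a1 and in none of the others. The Slc1a1 cluster had 346 UMIs with DMSO (137 CPM, 123 to 152) and 109 with MVC (75.5 CPM, 62.0 to 91.0), a ratio of 0.551 (0.440 to 0.685). The cluster led by Id1, with the capillary gene Car4 among its leading genes, had 157 and 137 CPM, with a ratio of 0.872 (0.728 to 1.04). The cluster led by Sele and Selp, adhesion genes of activated and venular endothelium, had 10 Tnf UMIs in each library. Macrophage-like cells had 551 and 564 UMIs (295 CPM, 271 to 321, vs. 268 CPM, 246 to 291), a ratio of 0.907 (0.805 to 1.02), in 81 of 152 and 93 of 211 cells. In T/NK-like cells Tnf was lower with MVC, at 81 and 9 UMIs (49.1 vs. 18.4 CPM, ratio 0.374, 0.165 to 0.746), with 45.7% and 66.7% of the UMIs in 3 cells, and in cells thinned to 2000 UMIs the ratio was 0.737 with no call. Over all cells the level was 42.7 CPM (40.6 to 44.8) and 33.7 CPM (31.9 to 35.7).

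Il1r1, the signalling receptor for both IL-1 ligands, was mainly a stromal and mural transcript. Its level was highest in SMC-like cells, followed by FAP-like cells, in both libraries, and lowest in B cell-like, lymphatic EC-like and Schwann-like cells with DMSO, which overlapped in their intervals. FAP-like cells held 61.5% and 63.8% of all Il1r1 UMIs, at 742 CPM (727 to 757) and 683 CPM (669 to 697), with a UMI in 79.6% and 74.5% of cells. MuSC-like cells had 323 CPM (289 to 360) and 393 CPM (365 to 423), and pericyte-like cells 264 and 279 CPM with overlapping intervals.

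Il1r1 was lower with MVC in SMC-like and perineurial-like cells. SMC-like cells had 1394 CPM (1335 to 1455) and 890 CPM (833 to 951), a ratio of 0.639 (0.590 to 0.691), with a UMI in 88.5% and 76.4% of cells. In the cluster led by Colec11 the level was 2152 vs. 1562 CPM (ratio 0.726, 0.667 to 0.789) and in the one led by Cck, which also has the contractile gene Acta2, 349 vs. 236 CPM (0.675, 0.536 to 0.846), and neither cluster reached the fold for a call alone. In cells thinned to 2000 UMIs the class ratio was 0.739 and the call was lost. Perineurial-like cells had 281 and 61 UMIs, or 401 CPM (356 to 451) and 122 CPM (93.0 to 156), a ratio of 0.303 (0.226 to 0.401), from 35 of 79 and 21 of 70 cells. With DMSO the Il1r1-carrying cells of this class had a median of 5 of 10 FAP markers and 1 of 6 perineurial markers, against 3 and 4 in the rest. The summed FAP markers in the class were 18406 and 12172 CPM, with 0 and 1 at 0, and the summed perineurial markers 2069 and 3362 CPM, with 0 at 0, and the part of this in the Il1r1 difference was not tested.

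In EC-like cells Il1r1 stood at 181 CPM (173 to 189) and 253 CPM (242 to 264), a ratio of 1.4 (1.31 to 1.49) that was not called. The Sele and Selp cluster held 72.4% and 71.4% of these UMIs while being 10.8% and 10.1% of the cells, at 674 and 928 CPM, so most endothelial Il1r1 transcripts came from this cluster in both libraries. Levels in the EC-like clusters led by Slc1a1, Dipk2b and Terb2 were lower, from 51.9 CPM in the first of these to 92.0 CPM in the last with DMSO, and their ratios were 2.14 (1.68 to 2.71), 2.01 (1.38 to 3.0) and 1.69 (1.28 to 2.23). In counts not scaled to depth, the cluster led by Id1 had 186 and 117 Il1r1 UMIs and the one led by Gja5 had 66 and 61. The higher calls in lymphocytes rest on few cells. B cell-like cells had 12 and 235 Il1r1 UMIs, a ratio of 34.1 (19.1 to 66.9), but 3 cells held 92.8% of the MVC UMIs, and all 3 were marked as doublets and had UMIs of 2 to 7 of 10 FAP markers. T/NK-like cells had 213 and 114 UMIs (129 vs. 233 CPM, ratio 1.80, 1.42 to 2.27), with 81.6% of the MVC UMIs in 3 cells. The summed FAP markers in these classes were 295 and 2278 CPM in B cell-like cells, with 1 and 0 of the 10 markers at 0, and 341 and 1907 CPM in T/NK-like cells, with 1 at 0 in each library. Without the 3 highest cells of each library the B cell-like ratio was 7.89 (2.57 to 32.2), and with doublets removed it was 3.67 (1.10 to 13.9), both on too few UMIs for a call. In T/NK-like cells without the 3 highest cells the ratio was 0.560 (0.336 to 0.890), a lower call in place of the higher one.

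Il33 was found mainly in perineurial-like, FAP-like and tenocyte-like cells in both libraries. Perineurial-like cells had the highest level, 2127 CPM (2021 to 2238) and 2815 CPM (2670 to 2966), a ratio of 1.32 (1.23 to 1.42), in 60 of 79 and 51 of 70 cells. FAP-like cells held most of the transcripts, 61.8% and 65.4% of all Il33 UMIs, at 580 CPM (566 to 593) and 480 CPM (468 to 491), with a UMI in 39.98% and 39.4% of cells. Of the compared classes, pericyte-like cells were at the low end, with an interval that overlapped EC-like cells with DMSO and Schwann-like cells with MVC, and neutrophil-like and mast-like cells had 0 UMIs. Pericyte-like cells had 12.9 and 10.1 CPM, and 3.40% and 3.497% of their cells had a UMI at median depths of 4189 and 2938, against 10392 and 9205 in FAP-like cells.

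Among FAP-like clusters Il33 varied more than between the libraries. The cluster led by Ifi205 had 786 and 703 CPM and the one led by Dmkn 823 and 852 CPM. In contrast the cluster led by Cxcl14 had 98.3 CPM (87.6 to 110) and 112 CPM (103 to 122). The cluster led by Dact2, with the adventitial gene Pi16 among its leading genes, had 129 CPM (107 to 155) and 217 CPM (190 to 246), a ratio of 1.68 (1.34 to 2.11). Il1r1 followed the same division in its levels, at 961 and 985 CPM in the Ifi205 cluster and 864 and 889 CPM in the Dmkn cluster, against 382 and 362 CPM in the Cxcl14 cluster. The Ifi205 cluster was 44.5% and 35.0% of FAP-like cells and the Cxcl14 cluster 30.1% and 40.9%. The part of this mix in the FAP-like class levels of Il33 and Il1r1 was not tested. In tenocyte-like cells the level of Il33 was 309 CPM (292 to 327) and 306 CPM (289 to 323), with 590 and 486 CPM in the cluster led by Wif1 and Kera and 100 and 165 CPM in the one led by Col22a1.

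Of the called Il33 differences, the one spread over the most cells was in EC-like cells. They had 140 UMIs in 60 cells with DMSO and 288 UMIs in 79 cells with MVC, or 13.4 CPM (11.3 to 15.8) and 35.1 CPM (31.1 to 39.4), a ratio of 2.61 (2.13 to 3.22). The Sele and Selp cluster held 102 and 232 of these UMIs, at 50.3 CPM (41.0 to 61.1) and 145 CPM (127 to 165), a ratio of 2.88 (2.27 to 3.67), in 10.1% and 19.7% of its cells. At 2000 UMIs per cell, 1.37% and 2.68% of EC-like cells had a UMI, a difference of 1.31 percentage points (0.372 to 2.35). With 1000 UMIs per cell the shares were 0.931% and 1.53%. Their difference of 0.597 percentage points (-0.0709 to 1.32) had an interval that included 0. The other EC-like clusters had from 0 to 16 UMIs in a library. The 10 FAP markers summed to 113 and 261 CPM in EC-like cells, with 1 and 0 at 0, and their part in the Il33 difference was not tested.

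The other Il33 calls rested on few cells. In lymphatic EC-like cells 439 UMIs were counted with DMSO and 44 with MVC, a ratio of 0.124 (0.0891 to 0.170), in nearly equal numbers of cells (22 of 75 and 23 of 79), and 3 DMSO cells held 77.7% of the UMIs. Without the 3 highest cells of each library the ratio was 0.386. SMC-like cells had 765 UMIs in 18 cells and 92 UMIs in 4 cells (509 vs. 91.5 CPM, ratio 0.180, 0.143 to 0.224), nearly all of them in the Colec11 cluster, and with classes from each cell's own marker score the ratio was 1.36. B cell-like cells had 180 and 17 UMIs (ratio 0.164, 0.0936 to 0.271), with 98.9% of the DMSO UMIs in 3 cells, and the direction turned without the 3 highest cells (4.69, 0.767 to 49.2) and with doublets removed (1.53, 0.224 to 9.04). T/NK-like cells had 75 and 67 UMIs (ratio 3.01, 2.13 to 4.24), with 94.7% and 88.1% in 3 cells, and all 3 of these MVC cells were marked as doublets. Without the 3 highest cells of each library, DMSO as well as MVC, the T/NK-like ratio was 7.66 (2.05 to 34.7) on too few UMIs for a call. With classes from each cell's own marker score it was 28.1. The summed FAP markers were 1424 and 952 CPM in SMC-like cells, with 1 and 0 of 10 at 0, and 227 and 753 CPM in lymphatic EC-like cells, with 3 and 0 at 0.

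**Figure D3:**
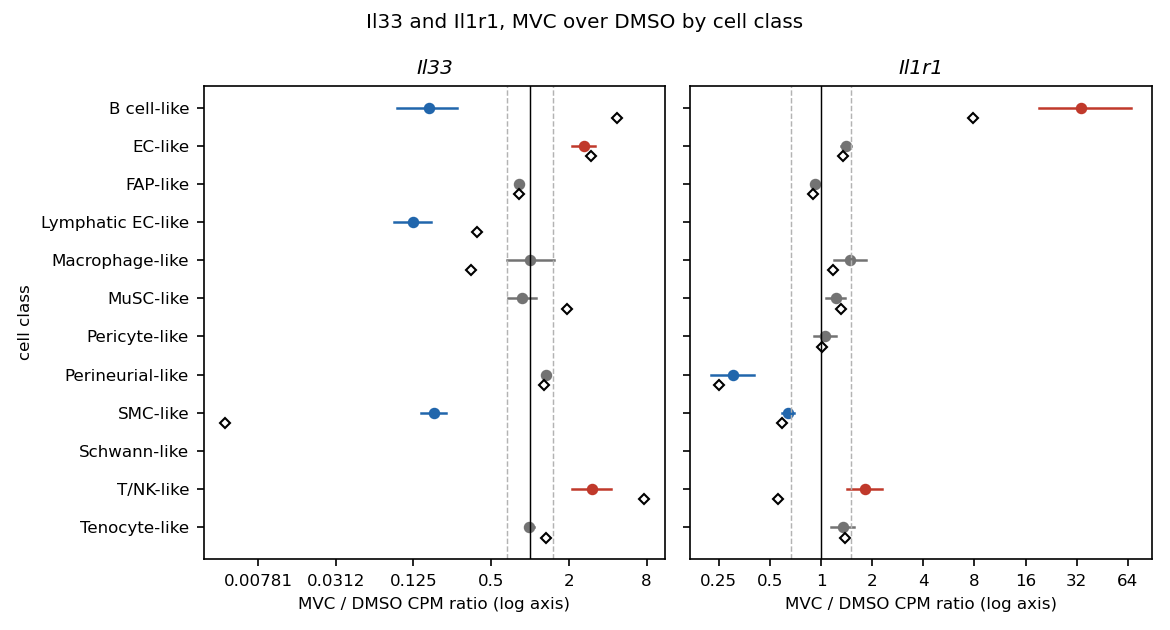
CPM ratio of MVC over DMSO on a log axis for Il33 (left) and Il1r1 (right) in each class with at least 50 UMIs. Filled points and bars are the ratio and its 95% counting interval (red called higher, blue called lower, grey not called), open diamonds leave out the 3 cells of each library with the most UMIs of the gene, and dashed lines mark 1.5-fold. Among the Il1r1 points B cell-like cells (34.1) stand farthest from 1, with the diamond at 7.89, and the T/NK-like point (1.80) and its diamond (0.560) lie on opposite sides of 1.

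Il1rl1, which encodes the IL-33 receptor ST2, was concentrated in a few cells. The mast-like cells had it in all 10 cells with DMSO and all 4 with MVC, at 1853 CPM (1577 to 2163) and 2284 CPM (1700 to 3003), and these cells held 36.4% and 20.4% of all Il1rl1 UMIs. Of these cells 9 and 1 were marked as doublets. T/NK-like cells had 165 UMIs in 12 cells and 24 UMIs in 4 cells (100 CPM, 85.3 to 116, vs. 49.0 CPM, 31.4 to 72.9), a ratio of 0.490 (0.305 to 0.755), while the share of cells with a UMI was 6.45% and 7.02%, and 3 cells held 50.9% and 95.8% of the UMIs. The 12 DMSO cells carried genes of the cell types known to bear ST2. The type 2 lymphoid regulator Gata3 was found in 11 of the 12 against 29.3% of the other 174 T/NK-like cells, Areg in 7 (against 10.3%) and the type 2 cytokine gene Il5 in 3 (against 0). Of the regulatory T cell genes, Foxp3 was found in 8 of the 12 (against 6.90%) and Il2ra in 9 (against 19.5%). Cd3e, part of the T cell receptor complex, was found in 6 (against 79.9%), and the cytotoxic T cell gene Cd8a in 0 (against 27.6%). The 4 MVC cells were too few to show such a pattern, with Gata3 in 3 (against 37.7% of the other 53 cells), Areg, Il5 and Foxp3 in 1 each, and Cd3e in 3 (against 75.5%).

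FAP-like cells had 61 and 116 Il1rl1 UMIs, or 4.81 CPM (3.68 to 6.18) and 8.59 CPM (7.09 to 10.3), a ratio of 1.79 (1.30 to 2.48), in 15 of 1168 and 18 of 1419 cells with 65.6% and 74.1% of the UMIs in 3 cells. Without those cells the ratio was 1.34 and the call was lost. Macrophage-like cells had 5 UMIs in 4 cells with DMSO and 33 UMIs in 22 cells with MVC (2.68 CPM, 0.869 to 6.25, vs. 15.7 CPM, 10.8 to 22.0). These intervals did not overlap, but the gene was under the 50 UMIs needed for a call. Over all cells Il1rl1 was lower with MVC, at 440 and 250 UMIs (11.4 vs. 7.04 CPM, ratio 0.620, 0.529 to 0.726), but with doublets removed the log2 ratio was -0.20 and the call was lost. Mast-like and T/NK-like cells held 36.4% and 37.5% of these UMIs with DMSO but 20.4% and 9.60% with MVC, where FAP-like cells held the largest share (46.4%, against 13.9% with DMSO). Fewer mast-like and T/NK-like cells and fewer transcripts per cell cannot be told apart in that sum.

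Tnfaip3, which encodes A20, an inhibitor of TNF and IL-1 signalling, was higher with MVC in 4 classes, and in 9 of the 11 with enough UMIs its ratio was above 1. MuSC-like cells had 68 UMIs with DMSO (66.0 CPM, 51.3 to 83.7) and 283 with MVC (154 CPM, 136 to 173), a ratio of 2.33 (1.78 to 3.08), in 31 of 144 (21.5%) and 93 of 257 cells (36.2%). The intervals did not overlap, and at 2000 UMIs per cell the shares were 5.76% and 16.6%, a difference of 10.8 percentage points (4.22 to 16.7). The shares at 1000 UMIs per cell were 5.59% and 8.98%. Their difference of 3.39 percentage points (-2.45 to 8.35) had an interval that included 0. The summed FAP markers in MuSC-like cells were 103 and 760 CPM, with 4 and 0 of 10 at 0. Their part in the Tnfaip3 difference was not tested. Tenocyte-like cells had 304 and 637 UMIs, or 76.6 CPM (68.2 to 85.7) and 155 CPM (143 to 167), a ratio of 2.02 (1.76 to 2.32). Both tenocyte-like clusters were called, with 1.73 (1.44 to 2.08) in the one led by Col22a1 and 2.44 (1.97 to 3.04) in the one led by Wif1. The share of tenocyte-like cells at 2000 UMIs was 9.98% and 16.5%, a difference of 6.51 percentage points (2.05 to 10.9).

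SMC-like cells had 125 and 149 Tnfaip3 UMIs, or 83.2 CPM (69.2 to 99.1) and 148 CPM (125 to 174), a ratio of 1.78 (1.396 to 2.28), and at 2000 UMIs a share of 12.2% and 23.3%, a difference of 11.2 percentage points (2.495 to 20.4). Macrophage-like cells had 295 and 570 UMIs, or 158 CPM (140 to 177) and 270 CPM (248.7 to 294), a ratio of 1.71 (1.49 to 1.98). Here the share of cells at 2000 UMIs was 21.7% and 24.7%, a difference of 3.07 percentage points (-6.18 to 11.9), and without the 3 highest cells of each library the ratio was 1.48, under the fold for a call. T/NK-like cells had the highest level of the compared classes, 452 CPM (420 to 486) and 572 CPM (507 to 643), a ratio of 1.26 (1.10 to 1.45). Neither of the 2 largest classes was called, with 153 and 157 CPM in EC-like cells (ratio 1.02, 0.950 to 1.10) and 115 and 132 CPM in FAP-like cells (1.15, 1.07 to 1.23). Within the EC-like class, the Sele and Selp cluster had a ratio of 1.75 (1.44 to 2.13). Schwann-like cells had the lowest level, 15.3 and 35.1 CPM from 9 and 24 UMIs.

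Nfkbia, which encodes IkB-alpha, did not follow Tnfaip3. Its level was highest in the endothelium, with 2223 CPM (2195 to 2252) and 1829 CPM (1800 to 1859) in EC-like cells, a ratio of 0.823 (0.806 to 0.84), and 1559 CPM (1464 to 1658) and 2200 CPM (2074 to 2332) in lymphatic EC-like cells, a ratio of 1.41 (1.30 to 1.54). Neither reached the fold for a call. FAP-like cells had 871 and 732 CPM (ratio 0.84, 0.818 to 0.863), MuSC-like cells 529 and 627 CPM (1.19, 1.07 to 1.32), and tenocyte-like cells 1078 and 1193 CPM (1.11, 1.06 to 1.15). In Schwann-like cells the gene was lower with MVC, at 326 and 217 UMIs, or 556 CPM (497 to 619) and 317 CPM (276 to 362), a ratio of 0.571 (0.479 to 0.680). With each cell assigned by its own marker score in place of its cluster the Schwann-like ratio was 0.831 and the call was lost. The summed FAP markers in this class were 1564 and 677 CPM, with 1 and 0 of 10 at 0. Among larger classes, lower ratios were found in the EC-like cluster led by Dipk2b (0.572, 0.498 to 0.657) and in the FAP-like clusters led by Cxcl14 (0.657, 0.616 to 0.7) and Dact2 (0.662, 0.569 to 0.770).

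Nfkbiz, the IkB-zeta gene, was called in none of the 12 classes, and its ratios ran from 0.708 in T/NK-like cells (216 vs. 153 CPM, 0.544 to 0.910) to 1.27 in perineurial-like cells (374 vs. 475 CPM, 1.06 to 1.52). SMC-like cells had the highest level (576 CPM, 538 to 616, and 528 CPM, 484 to 575). The larger classes were close between libraries, with 376 and 409 CPM in EC-like cells and 363 and 371 CPM in FAP-like cells. Over all cells the ratio was 1.02 (0.992 to 1.04) for Nfkbiz, 0.852 (0.84 to 0.864) for Nfkbia and 1.15 (1.11 to 1.2) for Tnfaip3, so none of the 3 reached the fold for a call there and their ratios lay on both sides of 1.

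**Figure D4:**
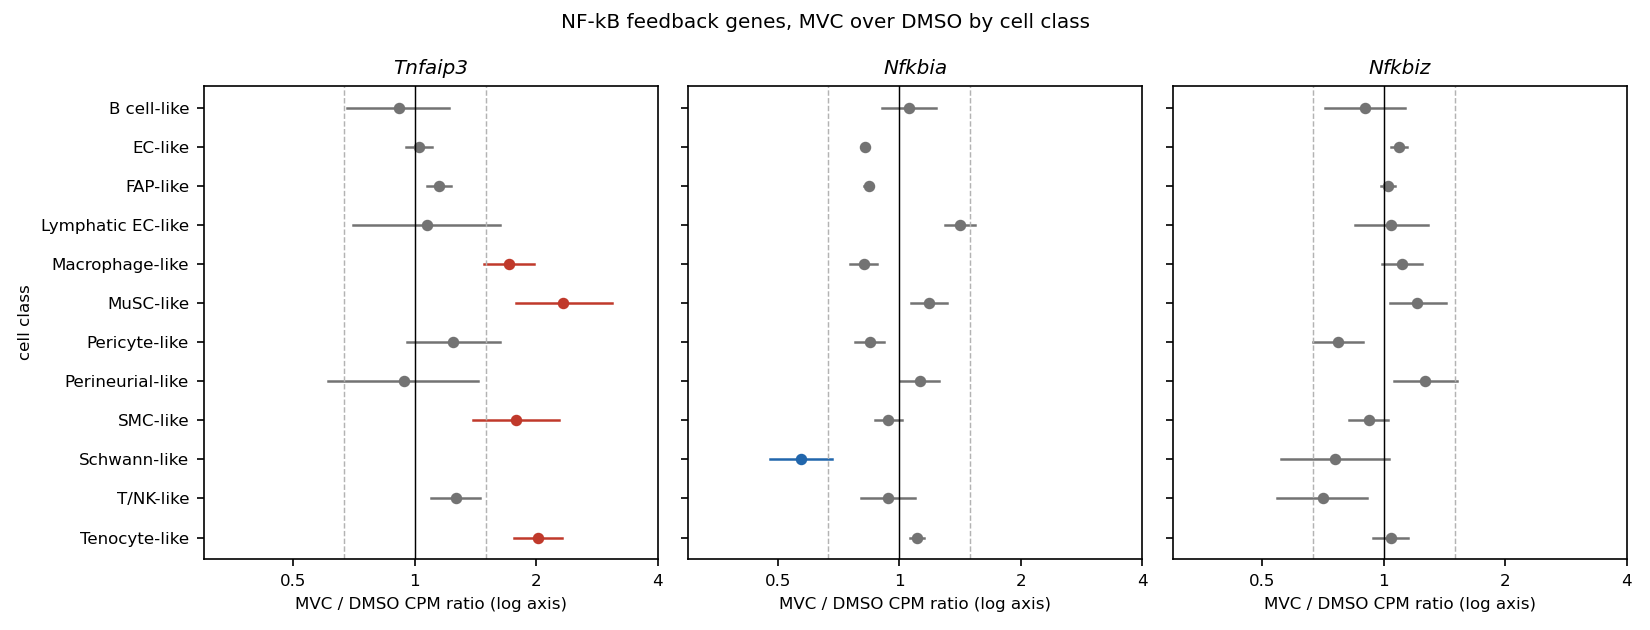
CPM ratio of MVC over DMSO on a log axis for Tnfaip3, Nfkbia and Nfkbiz in each cell class. Points and bars are the ratio and its 95% counting interval (red called higher, blue called lower, grey not called) and dashed lines mark 1.5-fold. The 4 red points are Tnfaip3 in MuSC-like (2.33), tenocyte-like (2.02), SMC-like (1.78) and macrophage-like cells (1.71), and the blue point is Nfkbia in Schwann-like cells (0.571).

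The feedback genes are also induced by tissue dissociation, so a list of 34 immediate-early and heat-shock genes was counted in the same classes. Of this list 10 genes were higher and 2 lower in MuSC-like cells (8.45% and 7.06% of all genes) with a median log2 ratio of 0.40, against -0.02 over all genes. In tenocyte-like cells 2 were higher and 1 lower (8.15% and 4.58% of all genes, median 0.14), and in macrophage-like cells 4 and 2 (8.54% and 5.51%, median 0.09). In SMC-like cells 0 were higher and 9 lower (9.75% and 5.92%, median -0.24), and in Schwann-like cells 1 was higher and 14 lower (9.3% and 6.12%, median -0.45). EC-like cells had 0 in either direction (9.12% and 3.16%, median -0.02) and FAP-like cells 0 and 3 (10.7% and 2.77%, median -0.04). Perineurial-like cells had 0 and 12 (14.2% and 9.33%, median -0.44) and pericyte-like cells 0 and 11 (7.93% and 4.6%, median -0.475). Lymphatic EC-like cells had 0 and 5 (8.08% and 9.28%, median -0.14). For B cell-like cells it was 8 and 4 (10.9% and 6.05%, median 0.17), and for T/NK-like cells 10 and 2 (13.7% and 8.62%, median 0.22). The part of dissociation in the feedback gene ratios was not tested.

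Beside the 10 genes, 63 further genes of these pathways were counted in each class, from a list of ligands, receptors, adaptors, subunits, inhibitors and targets. EC-like cells had 2 of 53 higher and 1 lower (9.12% and 3.16% of all genes), with Tnfsf10, the ligand TRAIL, higher (29.5 vs. 57.2 CPM, ratio 1.94, 1.67 to 2.24) and Tnfrsf12a, the TWEAK receptor, lower (128 vs. 65.2 CPM, ratio 0.509, 0.460 to 0.563). FAP-like cells had 3 of 51 higher, among them the adhesion gene Vcam1 (48.7 vs. 89.6 CPM, ratio 1.84, 1.67 to 2.03), and 1 lower, the IL-1 decoy receptor gene Il1r2 (15.8 vs. 9.99 CPM, ratio 0.630, 0.503 to 0.788), where 10.7% and 2.77% of all genes were called. Tenocyte-like cells had 7 of 45 higher and 1 lower (8.15% and 4.58% of all genes), with Vcam1 (86.4 vs. 316 CPM, ratio 3.66) and Birc3, an NF-kB-induced inhibitor of apoptosis (348 vs. 599 CPM, ratio 1.72), higher and the neutrophil chemokine gene Cxcl2 (62.5 vs. 20.4 CPM, ratio 0.326) lower. MuSC-like cells had 4 of 41 higher, among them Birc2 (44.6 vs. 97.7 CPM, ratio 2.19), and 2 lower, among them Il6 (86.4 vs. 48.8 CPM, ratio 0.565), where 8.45% and 7.06% of all genes were called.

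In the remaining classes, macrophage-like cells had 2 of 53 pathway genes higher and 6 lower (8.54% and 5.51% of all genes). SMC-like cells had 2 of 40 and 5 (9.75% and 5.92%), and Schwann-like cells 1 of 26 and 5 (9.3% and 6.12%). Perineurial-like cells had 3 of 30 higher and 9 lower (14.2% and 9.33%). Among the latter were the target genes Ccl2 (5294 vs. 1196 CPM, ratio 0.226, 0.207 to 0.246), Cxcl2 (2496 vs. 698 CPM, ratio 0.280) and Sod2 (454 vs. 187 CPM, ratio 0.413). The adhesion gene Icam1, from the same list of targets, was higher (295 vs. 447 CPM, ratio 1.51), as was the A20-binding feedback gene Tnip1 (75.7 vs. 132 CPM, ratio 1.74). The summed FAP markers of perineurial-like cells were 18406 and 12172 CPM and their summed perineurial markers 2069 and 3362 CPM. The part of these markers, or of Il1r1, in the ratios was not tested. In SMC-like cells the cyclooxygenase gene Ptgs2 was lower (621 vs. 108 CPM, ratio 0.175, 0.142 to 0.213). Pericyte-like cells had 5 of 41 higher and 1 lower (7.93% and 4.6%), and lymphatic EC-like cells 4 of 31 and 3 (8.08% and 9.28%). B cell-like cells had 7 of 39 and 4 (10.9% and 6.05%), and T/NK-like cells 9 of 44 and 3 (13.7% and 8.62%). The median log2 ratio of the whole list ran from -0.21 in Schwann-like cells to 0.14 in pericyte-like cells, against 0.05 over all genes in each of these classes.

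**Figure D5:**
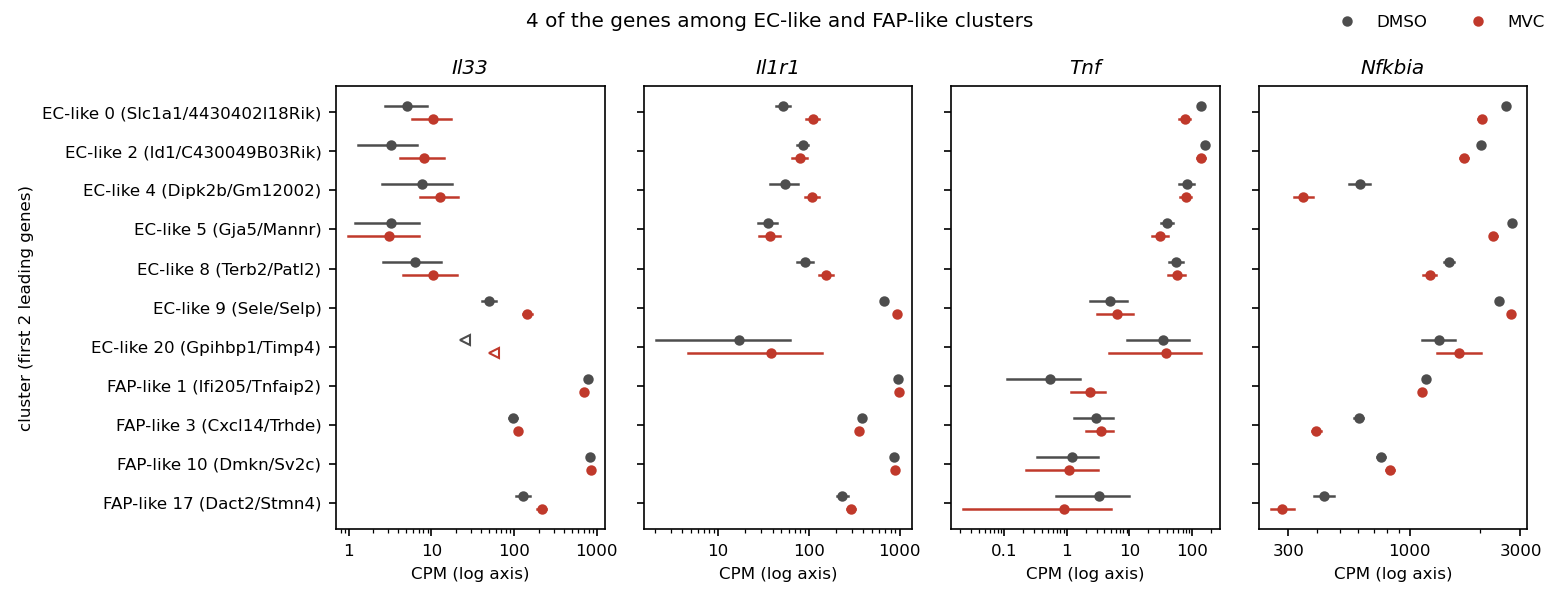
CPM on a log axis of Il33, Il1r1, Tnf and Nfkbia in the EC-like and FAP-like clusters, each named by its first 2 leading genes, with DMSO in grey and MVC in red and bars for the 95% counting interval, for clusters with at least 20 cells in each library. Open triangles mark the level of 3 counts where no UMI was counted. Il1r1 and Il33 are highest among EC-like clusters in the Sele/Selp cluster (674 and 928 CPM for Il1r1), and Tnf is lower there than in the other EC-like clusters.

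Across the 12 classes, the genes whose log2 levels were most correlated with each of the 10 were named out of 13095 genes, as a description over 12 points that share 2 libraries. Il1b was closest to Pira2 (Pearson's r = 0.988), Il1rn to Sirpb1b (0.985) and Il1a to Clec4a2 (0.994). Tnf was closest to Cysltr1 (0.917), Il33 to Gm17484 (0.909) and Il1rl1 to Acpp (0.914). Il1r1 was closest to Nup98 (0.907) and next to Cxcl1 (0.832). Of the feedback genes, Nfkbia was closest to Tgm2 (0.971), Tnfaip3 to Cenpl (0.88) and next to Tnfrsf1b (0.868), and Nfkbiz to Itih4 (0.875).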

How the data were processed

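Live-sorted limb muscle cells were profiled on the 10x Genomics platform, 1 library per treatment. The deposited files hold UMI counts per gene and barcode, not normalized, which the authors made with Cell Ranger 7.0.0 on mm10 (submitters' processing notes, which also name Seurat 5.0.1). The study's filter of 500 genes and 10% mitochondrial UMIs left 38748234 UMIs with DMSO and 35518029 with MVC. Cells scaled to 10000 counts and log-transformed were clustered on 2000 variable genes without the 10 genes (30 components, 20 neighbours, Leiden resolution 1, scanpy 1.11.5, leidenalg 0.10.2). Of 29 clusters, those with 4 or more markers of a class raised by a log2 fold of 1 in 20% of cells, and a lead of 0.5 over the next class, took its name, which gave 15 classes and left 1 cluster of 52 cells unnamed. These rebuilt names may differ from the study's. Doublets marked from simulated cell pairs were kept (236 cells, 4.34%, and 238 cells, 4.36%).

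Levels have exact Poisson intervals, ratios exact conditional binomial intervals, shares exact binomial intervals and their differences Newcombe intervals. Cells under 2000 UMIs (447 and 981) were left out of shares at 2000 UMIs per cell. Median log2 ratios used log2(CPM + 10). Named genes are the 10 genes, up to 3 called pathway genes per class and direction with the largest ratios, and the 3 genes most correlated with each of the 10 among those with at least 200 UMIs. The genes and lists were chosen with earlier results of these data known. The scripts were tested on simulated counts, in Python 3.11.15 with numpy 2.4.6 and scipy 1.17.1.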

Additional observations from a re-analysis of the deposited data

Results flagged for a closer look

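Some genes were called in opposite directions in different cell classes, though several of these calls did not hold. Each of the following ratios of MVC over DMSO was called in its class, while the same gene was called the other way in another class, and the differences between classes were not tested. The Il1r1 ratio was 34.1 in B cell-like cells and 1.80 in T/NK-like cells, and it was 0.303 in perineurial-like and 0.639 in SMC-like cells. For Il33 it was 2.61 in EC-like and 3.01 in T/NK-like cells, against 0.164 in B cell-like, 0.124 in lymphatic EC-like and 0.180 in SMC-like cells. For Il1rl1 it was 1.79 in FAP-like cells and 0.490 in T/NK-like cells. Both higher Il1r1 calls were unstable, since the B cell-like one was lost with doublets removed (3.67) and the T/NK-like one turned to 0.560 without the 3 highest cells and 0.542 in thinned cells. The FAP-like Il1rl1 call was lost without the 3 highest cells (1.34), and the B cell-like Il33 ratio turned to 4.69. In B cell-like and T/NK-like cells 3 cells held most of the UMIs of Il1r1 with MVC (92.8% and 81.6%). The EC-like ratio of Il33 and the perineurial-like ratio of Il1r1 were called in each of the 8 alternative settings that change cells, scaling or classes.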

How the results depend on the processing

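No paired analysis was possible because there is 1 library per treatment and no replicate number. Of the 18 calls, 18 were kept with a stricter cell filter, 18 with median ratio scaling, 18 at cluster resolution 2, 18 at a minimum of 20 UMIs, 17 at a minimum of 100 UMIs, 16 with the mean of per-cell CPM, 14 with classes from each cell's marker score, 12 at a fold of 2, and 11 both in thinned cells and without the 3 cells per library with the most UMIs of the gene. With doublets removed 12 were kept, 2 were lost and T/NK-like cells were under 50 per library. The number of higher calls was 9, and it was 5 without those 3 cells and 5 at a fold of 2. Over all cells, removing doublets gave 1 gene higher (Il1a) in place of 0 and 1 lower in place of 2, and a fold of 2 gave 1 lower. Some log2 ratios changed sign. Il1r1 in T/NK-like cells was -0.06 with the mean of per-cell CPM, -0.88 in thinned cells and -0.84 without the 3 cells. Il33 in B cell-like cells was 0.61 with doublets removed and 2.23 without the 3 cells, and in SMC-like cells it was 0.44 with classes from each cell's marker score. The causes were not tested. Il33 in EC-like and lymphatic EC-like cells, Il1rn in macrophage-like cells, Il1r1 in perineurial-like cells, and Tnfaip3 in MuSC-like, SMC-like and tenocyte-like cells were called in each of the 8 settings that change cells, scaling or classes, with ratios of 1.54 to 2.96, 0.0901 to 0.386, 0.292 to 0.473, 0.224 to 0.303, 1.83 to 3.2, 1.68 to 2.29 and 1.9 to 2.15 in that order. Shares at equal depth were also taken at 1000 UMIs per cell. Some share differences given above had intervals that excluded 0 at 2000 UMIs. With 1000 UMIs the interval included 0 for Tnfaip3 in MuSC-like cells and for Il33 in EC-like cells. It still excluded 0 for Il1rn in macrophage-like cells, Tnf in EC-like cells, and Tnfaip3 in SMC-like and tenocyte-like cells. Genes with fewer than 50 UMIs in a class, and differences between animals, are beyond these data.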
